A study of Mus musculus with 4 samples.

Results

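Voltage-gated potassium channels open when the membrane depolarises and let potassium leave the cell, which ends the action potential, sets how fast a neuron can fire again and holds back the next spike. Each channel is built from pore subunits that come from gene subfamilies with different speed and voltage range, and the subunits of a few subfamilies are electrically silent: they form no channel alone and act by joining Kcnb subunits. In the brain the pore subunits are best known from neurons, with Kcna subunits along the axon, Kcnc subunits in fast-spiking interneurons, Kcnd subunits in dendrites and Kcnq subunits at the start of the axon.

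The genes described here are the 40 of 31053 gene rows whose symbol is Kcna, Kcnb, Kcnc, Kcnd, Kcnf, Kcng, Kcnh, Kcnq, Kcns or Kcnv followed by a number. They are 8 Kcna, 2 Kcnb, 4 Kcnc, 3 Kcnd, 5 Kcnq and 8 Kcnh genes and 10 silent subunits of the Kcnf, Kcng, Kcns and Kcnv groups. They were chosen by name and not by a measured value. The inwardly rectifying, leak and calcium-activated potassium channels belong to other groups and serve only as a comparison.

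Nuclei came from brains of 2-month-old female mice of the C57/BL6 strain, with 2 WT mice and 2 mice heterozygous for Csf1r (Csf1r+/-), which lack a working copy of the colony stimulating factor-1 receptor gene in all cells. The mice were untreated, and heterozygotes have no symptoms at this age. Each library held the nuclei of 1 mouse, released without detergent after perfusion and cleared of myelin debris. The study asked how reduced receptor signalling changes microglia and their exchange with other brain cells, and the potassium channel genes are read here against that design and across cell types.

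After filtering, the 4 libraries held between 9589 and 16114 nuclei each, 52132 in all, with medians of 4636 to 7454 UMIs (molecules counted) per nucleus and 88097109 to 111488169 UMIs per library. The 40 genes took 0.995% to 1.21% of these UMIs. Between 33 and 68 barcodes were shared by any pair of libraries, at most 0.465% of the smaller library. WT replicate 2 stood apart, with 1051 nuclei removed for mitochondrial UMIs against 181 to 301 in the other libraries, and with 1102 of the 1859 oligodendrocyte nuclei. Csf1r itself was read in microglia at 753 and 851 CPM in the WT libraries, then 553 and 536 CPM in the Csf1r+/- libraries, so both WT libraries were above both Csf1r+/- libraries. With 2 mice against 2 an exact permutation test of a single value cannot go below p = 0.333, so each genotype p given here comes from a model fitted over all genes.

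Nuclei were clustered without the potassium channel genes and named from marker genes, and a name such as oligodendrocyte means a nucleus like that cell type by its markers. There were 28464 excitatory, 13161 inhibitory, 1859 oligodendrocyte, 696 microglia, 563 endothelial, 214 mural and 208 oligodendrocyte precursor nuclei. A further 2385 nuclei were neurons with no clear transmitter, and 4582 stayed unnamed. Defining markers were present in each class: all 10 oligodendrocyte, 9 precursor, 10 microglia and 9 endothelial markers had a UMI in at least 10% of nuclei, while this held for 5 of 7 mural and 6 of 8 inhibitory markers. No cluster met the astrocyte list, so astrocytes are not described. Within neurons 34 types had at least 10 nuclei in each library, 20 excitatory, 12 inhibitory and 2 other, and a type that met no list carries the name of its leading gene.

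Levels are UMIs per 1000000 UMIs of the summed nuclei of a type in a library (CPM), given as mean ± SD over the 4 libraries. Long genes gave more UMIs: over the 40 genes, gene span and total UMIs had a Spearman rho of 0.644, a description with no test. Levels are therefore compared for 1 gene over types and never between genes. Total counts over all nuclei ran from 5 UMIs for Kcna7 to 1047903 for Kcnd2. In 11 genes the highest type stayed under 20 CPM. Of the other 29, 17 reached at least 3 times their median over the 34 types in their highest type, and 11 of the 40 were at 20 CPM or more in every type. The heat map of types shows these differences gene by gene.

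**Figure D1:**
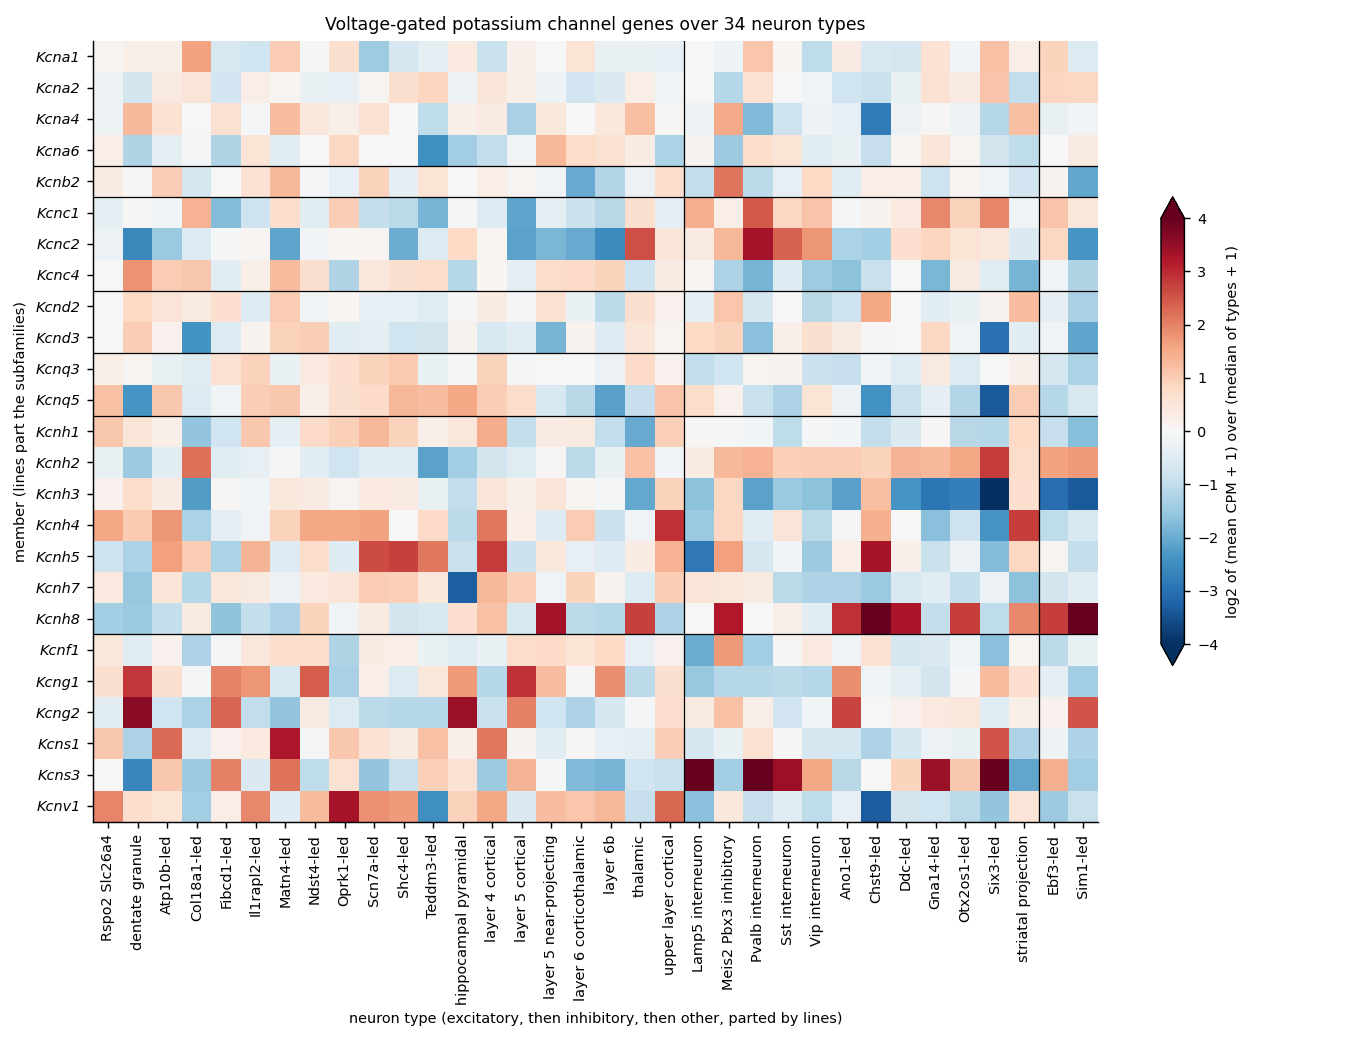
Each cell gives the log2 of a member's mean CPM plus 1 in a neuron type (columns) over its median across the 34 types plus 1, for members (rows) that reached 20 CPM in a type; colours stop at 4 in either direction. Kcns3 was dark red in Lamp5, Pvalb and Six3-led neurons and Kcnc2 in Pvalb neurons.

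Positions were read from GENCODE M21 on GRCm38, where most Kcna genes lie in groups. Kcna5, Kcna1 and Kcna6 lie side by side on the minus strand of chromosome 6 (Kcna1 at chr6:126640397-126646384 and Kcna6 at chr6:126708329-126740674), and Kcna3, Kcna2 and Kcna10 on the plus strand of chromosome 3. Kcna1 and Kcna2 encode axonal subunits that often share a channel. Kcna1 was highest in Col18a1-led excitatory neurons, with 130 and 199 CPM in the WT and 177 and 165 CPM in the Csf1r+/- libraries (168 ± 28.8, median over types 54.9). These overlapped with 4 other types, among them Six3-led inhibitory neurons at 126 ± 37.4. Kcna2 varied less, with its highest mean of 63.3 ± 26.0 in Six3-led neurons overlapping 23 types. Kcna4, a fast-inactivating subunit, reached 72.7 ± 15.8 in Meis2 Pbx3 inhibitory neurons, overlapping 5 types. Kcna6 reached 84.2 ± 8.76 in layer 5 near-projecting neurons, above every other type in each library. Kcna3, Kcna5, Kcna7 and Kcna10 had 227, 91, 5 and 55 UMIs in all 52132 nuclei and no type of theirs exceeded 3.06 CPM.

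Kcnb2 encodes a delayed rectifier subunit that silent subunits join. Kcnb2 stood out in Meis2 Pbx3 inhibitory neurons, at 3314 and 3383 CPM in WT, then 4338 and 4479 CPM in Csf1r+/- (3879 ± 616, 4.37 times its median). Every library there was above the next type, Matn4-led excitatory neurons at 2202 ± 315, and the lowest type was Sim1-led neurons at 211.

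Of the 10 silent subunits, 6 reached 20 CPM and 3 times their median. Kcns3 read 147 and 135 CPM in the WT and 220 and 160 CPM in the Csf1r+/- Lamp5 interneurons (165 ± 37.7, 32.4 times the median of 5.11). Six3-led neurons followed at 116 ± 56.6 and overlapped with it, then Pvalb interneurons at 106, and no UMI was found in dentate granule neurons. Kcns1 was highest in Matn4-led excitatory neurons, with 16.1 and 21.7 CPM in WT, then 23.3 and 23.1 in Csf1r+/- (21.0 ± 3.34, 15.7 times the median). All 4 were above Six3-led neurons at 12.3 ± 2.69, but the lowest rests on 6 UMIs.

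Kcng2 had its highest means in dentate granule and hippocampal pyramidal neurons, and Kcng1 in layer 5 cortical and dentate granule neurons. Kcng2 gave 53.3 and 70.6 CPM in WT, then 73.1 and 24.2 CPM in Csf1r+/- dentate granule neurons (55.3 ± 22.5, 15.4 times the median), the last value from 4 UMIs. These overlapped with 4 other types, among them hippocampal pyramidal neurons at 48.8 ± 15.1 and Ano1-led inhibitory neurons at 29.0. Kcng1 gave 24.6 and 35.5 CPM in WT, then 37.6 and 25.3 CPM in Csf1r+/- layer 5 cortical neurons (30.7 ± 6.75). It overlapped 3 types there, among them dentate granule neurons at 29.2 ± 13.9. Kcnv1 varied little between libraries, with 97.7 and 95.1 CPM in WT, then 92.0 and 100.2 CPM in Csf1r+/- in Oprk1-led excitatory neurons (96.2 ± 3.53, 10.7 times the median). Upper layer cortical neurons followed at 47.5 ± 10.7 with no overlap, and Chst9-led inhibitory neurons had no Kcnv1 UMI. Kcnf1 was highest in Meis2 Pbx3 neurons, as Kcnb2 was, at 15.2 and 34.6 CPM in WT, then 28.4 and 23.2 CPM in Csf1r+/- (25.3 ± 8.23), overlapping 7 types. Kcng3, Kcns2, Kcng4 and Kcnv2 reached 18.8, 13.8, 5.76 and 2.15 CPM at most.

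**Figure D2:**
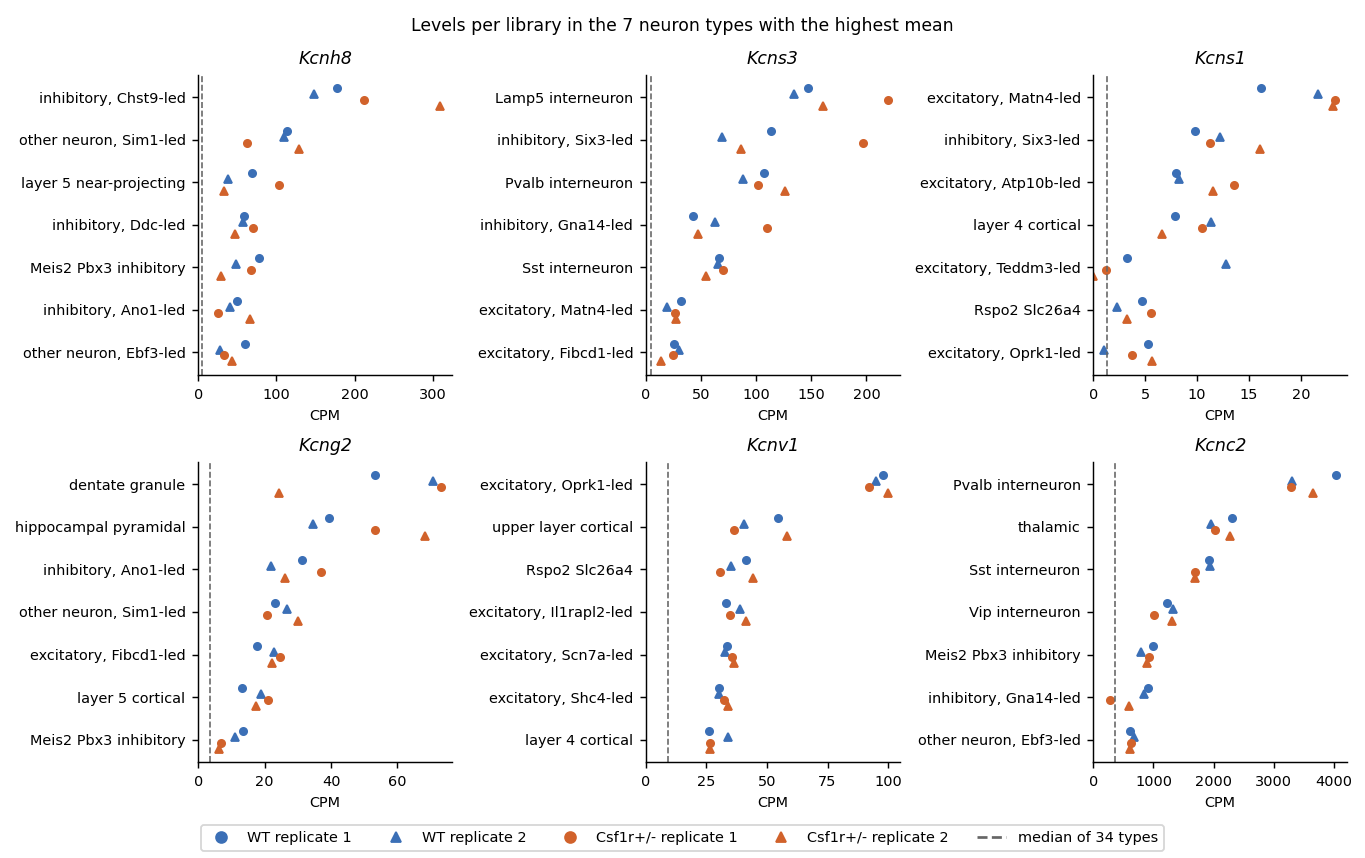
Points give CPM in each library for the 7 neuron types with the highest mean, for the 5 members with the highest ratio of top to median among those that reached 20 CPM, and for Kcnc2; the dashed line is the median over 34 types. The 4 libraries of Oprk1-led neurons lie between 92.0 and 100.2 CPM of Kcnv1, while Kcng2 in dentate granule neurons spreads from 24.2 to 73.1 CPM.

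Kcnc channels open at strong depolarisation and close fast, and Kcnc1, Kcnc2 and Kcnc4 met the level and ratio. Kcnc2 was highest in Pvalb interneurons, at 4033 and 3304 CPM in WT, then 3281 and 3651 CPM in Csf1r+/- (3567 ± 354, 10.0 times the median of 356). Each library was above thalamic neurons at 2142 ± 177, and dentate granule neurons were lowest at 58.8. Kcnc1 was also highest in Pvalb interneurons, at 256 and 325 CPM in WT, then 397 and 381 CPM in Csf1r+/- (340 ± 63.6), with an overlap with Six3-led (239 ± 55.9) and Gna14-led inhibitory neurons. Kcnc4 was instead highest in dentate granule neurons, where it read 43.0 and 54.1 CPM in WT, then 30.1 and 60.5 CPM in Csf1r+/- (46.9 ± 13.4). The lowest of these came from 7 UMIs, and 3 types overlapped.

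Kcnc1, Kcnc2 and Kcns3 were all high in Pvalb interneurons, and the windows from 250 bases before to 50 after their annotated starts are shown for that reason (RefSeq, GRCm38.p6, the most upstream start where a gene has several). Matches to the GC box GGGCGG and to ACAAAG, the core bound by SOX factors, are in capitals, on either strand, so that GGGCGG also appears as CCGCCC and ACAAAG as CTTTGT.
Kcnc1, chr7:46396218-46396517, plus strand: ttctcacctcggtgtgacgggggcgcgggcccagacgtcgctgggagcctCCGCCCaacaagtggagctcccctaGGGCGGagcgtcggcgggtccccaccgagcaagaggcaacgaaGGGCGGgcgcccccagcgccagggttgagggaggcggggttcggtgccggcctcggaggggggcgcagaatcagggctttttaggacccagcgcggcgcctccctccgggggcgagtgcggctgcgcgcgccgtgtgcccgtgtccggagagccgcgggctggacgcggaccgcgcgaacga
Kcnc2, chr10:112269767-112270066, plus strand: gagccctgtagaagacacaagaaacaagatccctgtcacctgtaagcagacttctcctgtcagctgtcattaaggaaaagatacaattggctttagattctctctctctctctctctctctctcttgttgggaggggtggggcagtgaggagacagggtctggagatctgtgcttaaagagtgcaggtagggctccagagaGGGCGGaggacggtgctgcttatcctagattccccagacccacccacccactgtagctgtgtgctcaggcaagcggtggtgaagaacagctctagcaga
Kcns3, chr12:11150793-11151092, minus strand: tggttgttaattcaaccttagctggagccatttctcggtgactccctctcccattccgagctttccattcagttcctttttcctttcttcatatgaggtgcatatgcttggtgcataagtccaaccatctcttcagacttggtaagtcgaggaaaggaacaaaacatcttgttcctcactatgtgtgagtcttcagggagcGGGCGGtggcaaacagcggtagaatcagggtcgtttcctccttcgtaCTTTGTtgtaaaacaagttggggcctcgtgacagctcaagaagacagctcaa
GGGCGG occurred in all 3 windows, 3 times in Kcnc1, once each in Kcnc2 and Kcns3. Kcnc2 has 4 annotated windows, and the one shown is the only 1 of them that holds it, while both windows of Kcns3 do. It is common: 35.7% of 32851 such windows hold it, and 18 of the 30 windows found for 25 of the 40 members. TATAAA was in none of the 30 member windows and in 13.6% of all, CACGTG in 1 and in 7.15%, and ACAAAG in 2 and in 18.7%. The median share of G and C bases was 64.7% in member windows and 52.7% in all windows, and its part in these shares was not tested. These are matches of letters only, and windows of 1 gene overlap.

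Kcnd channels carry the fast transient current of dendrites and bind Kcnip and Dpp partners. Kcnd2 was above 1000 CPM in all types, from 1091 in Sim1-led neurons to 7724 ± 1393 in Chst9-led inhibitory neurons, which overlapped striatal projection neurons at 6271 ± 459. Kcnd3 was highest in dentate granule neurons at 505 ± 79.6, overlapping 6 types, and lowest in Six3-led neurons at 31.0. Kcnd1 had 1096 UMIs in all and at most 7.91 CPM in a neuron type. Among the partners, Kcnip1 ranged from 2.96 CPM in Il1rapl2-led neurons to 1329 and 920 CPM in WT, then 1360 and 1127 CPM in Csf1r+/- Six3-led neurons (1184 ± 204, 34.1 times its median). Kcnip2 was highest in striatal projection neurons (105 ± 22.2), Kcnip3 in layer 6b neurons (363 ± 90.1) and Kcnip4 in thalamic neurons (25766 ± 2572). Dpp6 (3660 ± 243) and Dpp10 (2425 ± 186) were both highest in Meis2 Pbx3 inhibitory neurons.

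Kcnq3 and Kcnq5 subunits carry the slow M-current that damps repeated firing. Kcnq3 reached 1640 ± 11.4 in Shc4-led excitatory neurons, with 1630 and 1640 CPM in WT, then 1656 and 1634 CPM in Csf1r+/-. Kcnq5 reached 4528 ± 687 in hippocampal pyramidal neurons, overlapping 5 types, and was at 152 CPM in Six3-led neurons. Kcnq1, the cardiac and epithelial subunit, stayed under 10 CPM in all neuron types.

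The Kcnh genes encode the ether-a-go-go channels. Kcnh8 had the highest ratio of all members that reached 20 CPM: Chst9-led inhibitory neurons gave 177 and 147 CPM in WT, then 212 and 309 CPM in Csf1r+/- (212 ± 70.3, 41.1 times the median of 5.15), from 10 to 16 UMIs a library in 65 nuclei. Sim1-led neurons followed at 104 ± 29.0 without overlap. Kcnh5 was highest in the same Chst9-led nuclei, with 1241 and 1268 CPM in WT, then 1288 and 1052 CPM in Csf1r+/-, above layer 4 cortical neurons at 838 ± 140. Kcnh1 and Kcnh7 were highest in layer 4 cortical neurons, at 474 ± 55.8 and 4214 ± 312, each overlapping 2 types. Kcnh7 was at 167 CPM in hippocampal pyramidal neurons. Kcnh4 read 35.6 and 37.3 CPM in WT, then 42.6 and 36.7 CPM in Csf1r+/- upper layer cortical neurons (38.0 ± 3.11), overlapping striatal projection neurons at 34 ± 7.10. Kcnh2, the cardiac repolarising subunit, read 23.5 and 32.6 CPM in WT, then 33.7 and 26.8 CPM in Csf1r+/- Six3-led neurons (29.2 ± 4.82), from 5 to 12 UMIs a library and overlapping 2 types. Kcnh3 reached 64.4 ± 30.5 CPM in Chst9-led neurons, from 2 to 6 UMIs a library, and overlapped 19 types, with upper layer cortical neurons next at 51.7 ± 2.36. Kcnh6 reached 11.1 CPM in Col18a1-led neurons.

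Over the 34 neuron types, 406 pairs of the 29 members at 20 CPM or more had a median Spearman rho of 0.05 and a highest of 0.77, on types that share libraries and depth. Kcnh3 and Kcnh4 had that highest value, Kcnh1 and Kcnv1 had 0.73 and Kcnc1 and Kcnh2 0.72. Kcnh1 and Kcnh2 lay in opposite order (-0.64), as did Kcnc1 and Kcnf1 (-0.62). Kcna1 and Kcna2 had 0.10, and Kcnc1 and Kcnc2 0.52.

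Inhibitory neurons had more Kcns3, Kcnc1 and Kcnc2 than excitatory neurons, and less Kcnv1, Kcnq3 and Kcnq5. Kcnh1, Kcnh3, Kcnh4, Kcnh5 and Kcnh7, the Kcnh genes that passed the filter, were lower too. Of the 22 members that passed the filter, 4 were higher and 14 lower at adjusted p under 0.05 (edgeR quasi-likelihood test, library as block), beside 68.8% of all 7945 genes called, 37.0% higher and 31.8% lower. As a share of those tested, more members than genes were lower and fewer were higher, a description with no test. A gene had to pass the detection limit in only 1 of the 2 classes. Kcns3 passed it in inhibitory neurons alone, and Kcnv1, Kcnh3, Kcnh4 and Kcnc4 in excitatory neurons alone, so the filter favoured their direction. Kcns3 read 37.1, 29.4, 37.0 and 40.7 CPM in the inhibitory nuclei of WT 1, WT 2, Csf1r+/- 1 and Csf1r+/- 2, against 3.55, 3.87, 3.86 and 4.11 CPM in excitatory nuclei. The ranges were far apart and the log2 fold change was 3.07 ± 0.08 (SE, adjusted p = 1.15e-06). Kcnc1 read 112, 134, 144 and 146 CPM against 45.7, 47.0, 46.7 and 46.1 CPM in the same order of libraries, a log2 fold change of 1.36 ± 0.06 (adjusted p = 3.54e-06). Kcnc2 read 1247, 1082, 1072 and 1254 CPM against 475, 443, 351 and 420 CPM, a log2 fold change of 1.31 ± 0.06 (adjusted p = 3.02e-06).

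In the other direction, excitatory nuclei held 29.2, 28.4, 24.9 and 32.5 CPM of Kcnv1, against 4.39, 8.32, 4.53 and 6.59 CPM for the inhibitory class, a log2 fold change of -2.44 ± 0.15 (adjusted p = 1.06e-05). No library overlapped. Of the Kcnh genes tested, Kcnh1, Kcnh3, Kcnh4, Kcnh5 and Kcnh7 were all lower, by log2 fold changes from -1.67 to -1.30, as were Kcnq5 (-1.24) and Kcnq3 (-0.90). Kcnh2, Kcnh6 and Kcnh8 did not pass the filter, and Kcnh8 had a higher mean CPM in inhibitory neurons. Kcnb2 differed by -0.01 ± 0.06 and did not pass. The median over members was -0.43 beside 0.03 over all genes. TMM scaling placed the fold changes 0.16 below those of plain CPM on the log2 scale, which turned the sign of Kcnb2, Kcnd3 and Kcna6, none of them called. Kcna2 was called at -0.20 but its CPM was 28 ± 1.80 against 28.7 ± 0.92, and Kcnd2, at -0.18, was called in 9 of 13 alternative settings.

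**Figure D3:**
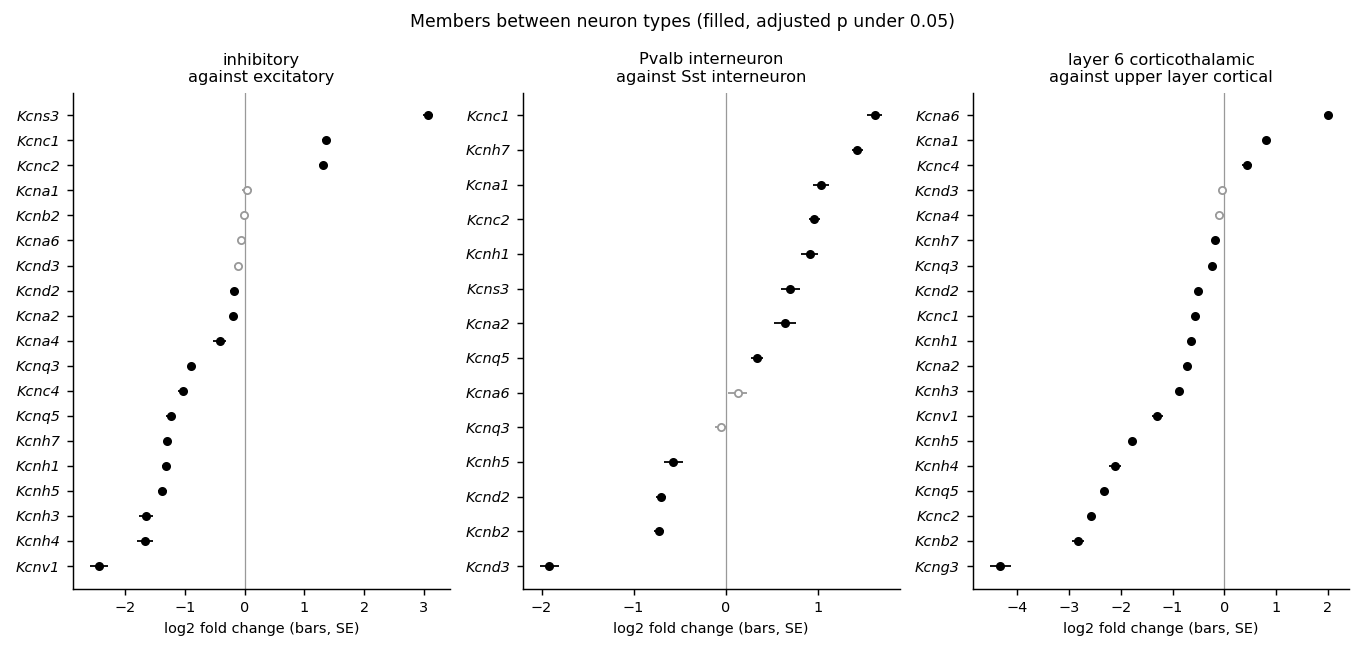
Points give the log2 fold change and bars the SE of members that passed the filter, for 3 comparisons of neuron types over 4 libraries; filled points had an adjusted p under 0.05. Kcns3 stands at 3.07 in inhibitory neurons, Kcnc1 at 1.62 in Pvalb interneurons and Kcng3 at -4.33 in layer 6 corticothalamic neurons.

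Pvalb interneurons, the fast-spiking cells, were compared with Sst interneurons, which share their origin. Of 17 members tested, 9 were higher and 5 lower, beside 35.5% of 7965 genes called, 18.1% higher and 17.4% lower. Kcnc1 read 256, 325, 397 and 381 CPM in Pvalb and 87.8, 132, 125 and 91.9 CPM in Sst interneurons (log2 fold change 1.62 ± 0.09, adjusted p = 2.29e-13). Kcnc2 (0.96 ± 0.06) was higher as well, as were Kcns3 (0.70 ± 0.10) and Kcna1 (1.04 ± 0.09). Kcnh7 read 2265, 1880, 2005 and 2363 CPM against 770, 743, 670 and 972 CPM (1.43 ± 0.06, adjusted p = 3.23e-15).

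Both Kcnd genes tested were lower in Pvalb interneurons. Kcnd3 read 91.7, 98.2, 62.8 and 59.1 CPM against 297, 275, 297 and 303 CPM in Sst interneurons, with no overlap (-1.91 ± 0.10, adjusted p = 2.62e-13), and Kcnd2 differed by -0.70 ± 0.06. Kcnb2 (-0.73) and Kcnh5 (-0.57) were lower too. Kcnq3 differed by -0.06 ± 0.06 and did not pass. Of 14 channel partners tested, 6 were higher and 5 lower, beside 18.1% and 17.4% of all genes. The Kcnd partners Kcnip2, Dpp10 and Kcnip1 differed by 2.37 ± 0.14, -0.83 ± 0.06 and -0.52 ± 0.07 (adjusted p = 2.19e-12, 1.02e-10 and 3.14e-06). The median over members was 0.34, beside -0.01 over all genes.

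Layer 6 corticothalamic neurons, which project to the thalamus, had less of most members than upper layer cortical neurons. Of 22 members 4 were higher and 15 lower, beside 53.3% of 8240 genes called, 26.1% higher and 27.1% lower. Kcng3, a silent subunit, read 0.98, 0.56, 0.75 and 0.44 CPM in layer 6 and 13.1, 14.5, 11.2 and 14.9 CPM in upper layers (-4.33 ± 0.20, adjusted p = 1.21e-07). Kcng3 passed the detection limit in upper layer neurons alone, so the filter favoured this direction. Kcnb2 read 281, 136, 240 and 209 CPM against 1481, 1277, 1411 and 1570 CPM (-2.83 ± 0.12, adjusted p = 5.65e-08). Both were low in every layer 6 sum.

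Kcnc2 (-2.57 ± 0.06), Kcnq5 (-2.32 ± 0.05), Kcnh4 (-2.11 ± 0.12), Kcnh5 (-1.78 ± 0.06) and Kcnv1 (-1.29 ± 0.10) were lower in layer 6 too. Kcnh4, like Kcng3, passed the detection limit in upper layer neurons alone, so the filter favoured its direction. Kcna6, Kcna1 and Kcnc4 were among the 4 higher members. Kcna6 read 55.6, 55.6, 55.5 and 54.8 CPM in layer 6 and 10.8, 14.5, 13.1 and 14.4 CPM in upper layers (2.01 ± 0.08, adjusted p = 5.15e-08), and its neighbour Kcna1 differed by 0.81 ± 0.06. The median over members was -0.53 beside 0.01 over all genes. Kcnh7 and Kcnq3 were called at -0.18 and -0.23 with overlapping CPM ranges.

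Members found in neurons were also read in glial and vessel nuclei, and their median level lay within the library range of neuronal markers in each of these classes but the precursors, where it was above. The 19 members with at least 20 CPM in excitatory neurons were at a median of 26.0% of that level in microglia, 27.8% in oligodendrocytes, 39.5% in mural, 52.5% in endothelial and 60.1% in precursor nuclei. The 6 summed pan-neuronal markers were at 23.1%, 20.3%, 37.9%, 54.9% and 39.2% in the same order, with 35.3% to 42.3% over the libraries for precursors. Single members ranged more widely, in precursors from 13.2% to 159.7%. The part of neuronal RNA from other nuclei in these levels was not tested. Members whose 4 libraries were all above both neuron classes were 2 of 39 in oligodendrocytes (Kcna1 and Kcna6) and 1 each in precursors (Kcnh8), microglia (Kcnd1) and endothelial nuclei (Kcnq1), beside 10.7%, 4.14%, 17.0% and 14.8% of all genes with at least 10 UMIs, and 0 in mural nuclei (15.7%). These shares were below the background, and most members were lower in these classes or overlapped with neurons.

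Oligodendrocytes, which wrap axons in myelin, had 260 and 327 CPM of Kcna1 in WT and 318 and 357 CPM in Csf1r+/- (316 ± 40.3), against 51.3 ± 8.18 in excitatory and 59.4 ± 11.8 in inhibitory neurons. Kcna6, which lies beside Kcna1 on chromosome 6, read 141 and 111 CPM in WT, then 160 and 130 CPM in Csf1r+/- (136 ± 20.3), against 32.9 ± 2.61 and 35.1 ± 1.57. Both were above each neuron value in every library. Kcnq3 read 998 and 881 CPM in WT, then 1210 and 1073 CPM in Csf1r+/- (1040 ± 138), 96.1% of its excitatory level. Kcna2 was at 31.0 CPM, 108% of the excitatory level.

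**Figure D4:**
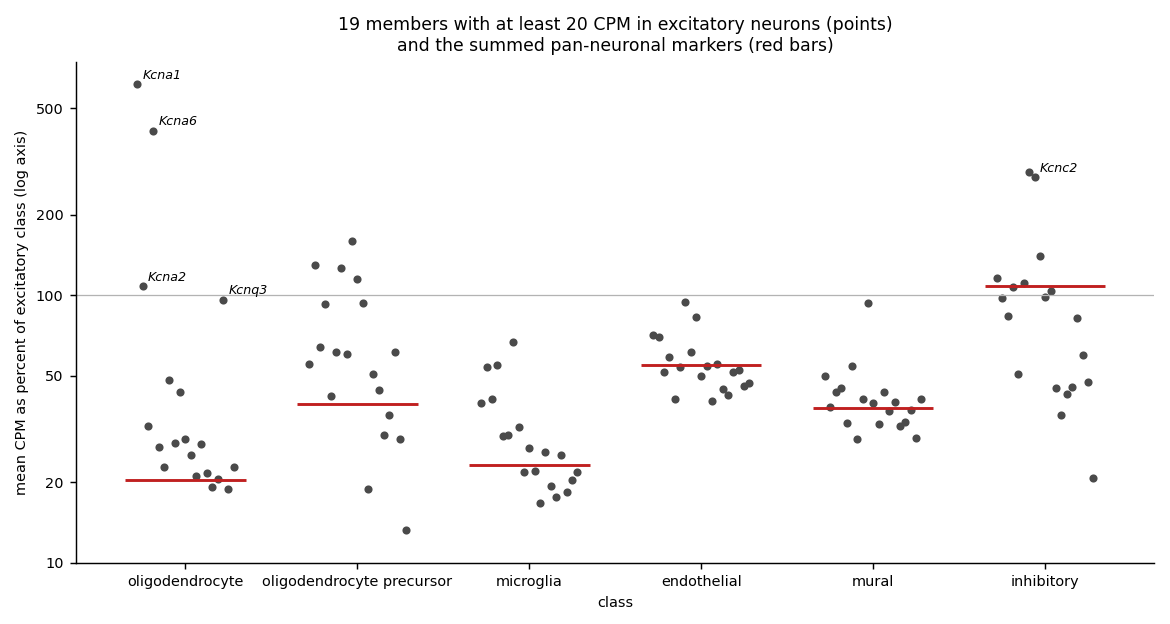
Points give the mean CPM of 19 members in a class as percent of their level in excitatory neurons (log axis), and red bars the same for 6 summed pan-neuronal markers. Kcna1 at 615% and Kcna6 at 413% stand above the rest in oligodendrocytes, where the red bar is at 20.3%.

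Oligodendrocyte precursors had 188 and 163 CPM of Kcnh8 in WT and 155 and 70.1 CPM in Csf1r+/- (144 ± 51.4), against 8.63 ± 1.17 in excitatory and 33.6 ± 6.06 in inhibitory neurons. The last value rests on 3 UMIs from 13 nuclei. Kcnd2 was at 3287 ± 548 CPM there, 115% of the excitatory level. In microglia Kcnd1 read 15.1 and 12 CPM in WT, then 24.5 and 21.1 CPM in Csf1r+/-, from 3 to 7 UMIs a library, against 2.61 ± 0.37 in excitatory neurons. Endothelial Kcnq1 read 22.9 and 16.8 CPM in WT, then 18.2 and 23.2 CPM in Csf1r+/-, from 5 to 17 UMIs, against 1.90 ± 0.27. Kcnq1 overlaps Kcnq1ot1 on the other strand, and 12 of the 40 members, Kcna6 among them, overlap a counted gene in this way. The use of strand in counting is not given in the sources used here.

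In the reported fit no member was called between the genotypes within neurons. In excitatory neurons 0 of 21 members had an adjusted p under 0.05 and in inhibitory neurons 0 of 18 (edgeR quasi-likelihood test, with 0% of all genes called in either class). At an unadjusted p under 0.05 there were 1 and 0 members. Beside these were 37 higher and 109 lower of 7705 genes in excitatory neurons, and 49 and 52 of 6708 in inhibitory neurons. The 1 was Kcnq5, with 2333 and 2150 TMM-scaled CPM in WT, then 2705 and 2915 in Csf1r+/- (log2 fold change 0.33 ± 0.12). The likelihood-ratio test and DESeq2 also called 0 in both classes. Median log2 fold changes of Csf1r+/- against WT were 0.04 in both, beside 0.00 over all genes. A test of whether the genotype difference itself differed between the 2 classes called 0 of 22 members (0% of genes), and the likelihood-ratio test called 0. At an unadjusted p under 0.05, 2 members were higher and 3 lower, beside 279 and 194 of 7945 genes.

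Over the 34 neuron types, 0 of 676 tests of a member in a type had an adjusted p under 0.05, beside 0.00754% of 251994 tests of all genes. The likelihood-ratio test called 2 and DESeq2 4, and the shares of all genes that these methods called are not given here. At an unadjusted p under 0.05, 21 were higher and 15 lower, beside 3382 and 5034 of the 251994 tests of all genes. At p under 0.01 there were 16, 9 higher and 7 lower, or 2.37%, beside 0.668% of all genes, 1.11% of the other potassium channels and 0.983% of channel partners. The tests share the same 4 mice, and neuron types of 1 library are not independent.

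Pvalb interneurons held 3 of the 16. Kcnd3 gave 97.7 and 101 TMM-scaled CPM in WT, then 64.5 and 62.2 in Csf1r+/-, without overlap (log2 fold change -0.65 ± 0.13, adjusted p = 0.689). Kcna1 gave 94.6 and 112 in WT and 138 and 159 in Csf1r+/- (0.52 ± 0.13, adjusted p = 0.880), and Kcnc1 273 and 335 against 408 and 401 (0.41 ± 0.13, adjusted p = 0.949). In each the groups were apart, and none passed over all genes. Picking the 16 tests by a small p favours groups that lie apart, so the separation adds nothing to the p.

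Kcnc2 was lower in 3 other types. Layer 5 near-projecting neurons gave 145 and 117 TMM-scaled CPM in WT, then 72.1 and 79.6 in Csf1r+/- (-0.79 ± 0.16, adjusted p = 0.999). Gna14-led inhibitory neurons gave 937 and 873 against 295 and 605 (-1.01 ± 0.28, adjusted p = 0.587), and Shc4-led excitatory neurons 110 and 125 against 53.0 and 77.7 (-0.85 ± 0.23, adjusted p = 0.927). In the neuron classes as a whole Kcnc2 differed by -0.22 ± 0.14 in excitatory and 0.01 ± 0.13 in inhibitory neurons.

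Fibcd1-led excitatory neurons had 3 members at this level: Kcnh7 (0.65 ± 0.16, adjusted p = 0.279), Kcnq5 (0.58 ± 0.17, adjusted p = 0.576) and Kcnh1 (-0.66 ± 0.20, adjusted p = 0.674). Kcnh1 went the other way in Atp10b-led excitatory neurons (0.70 ± 0.16, adjusted p = 0.137). In Meis2 Pbx3 inhibitory neurons Kcna4 (0.57 ± 0.15) and Kcnb2 (0.41 ± 0.12) were higher in both Csf1r+/- libraries, with adjusted p = 0.780 for each. Kcnb2 in Chst9-led neurons (0.86 ± 0.31) had an adjusted p of 0.994, and in Ano1-led neurons Kcna2 (-1.91 ± 0.50) and Kcng3 (-1.44 ± 0.46) had 0.868 and 1.

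Among glial and vessel classes, 0 of 8 members in oligodendrocytes, 0 of 16 in precursors, 0 of 6 in microglia and 0 of 11 in mural nuclei had an adjusted p under 0.05, with 0% of genes called in each class. At unadjusted p under 0.05 these were 1, 0, 0 and 2. Over all genes, 32 were higher and 84 lower of 3247 in oligodendrocytes, and 118 and 140 of 5606 in precursors. Of 3087 genes in microglia 45 were higher and 195 lower, and of 7134 in mural nuclei 142 and 129. The likelihood-ratio test and DESeq2 called 0 members in each class. The 6 members tested in microglia all had a negative log2 fold change, with a median of -0.59 beside 0.01 over all genes. The summed pan-neuronal markers in the same nuclei were 6713 and 6288 CPM in WT, then 2768 and 5617 CPM in Csf1r+/-, and their part in this was not tested. Without Csf1r+/- replicate 2, which left 1 Csf1r+/- library, the 6 log2 fold changes ran from -1.68 (Kcnq3) to -0.83 (Kcnq5). When each library was left out in turn, Kcnq3 lay between -1.68 and 0.04. In mural nuclei Kcnh5 gave 80.9 and 93.8 TMM-scaled CPM in WT, then 225 and 172 in Csf1r+/- (1.20 ± 0.36, adjusted p = 0.999).

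Endothelial nuclei held the single call. Kcnc2 gave 408 and 393 CPM in WT, then 124 and 107 CPM in Csf1r+/-, from 302, 164, 34 and 23 UMIs. The groups were apart and the log2 fold change was -1.87 ± 0.27 (adjusted p = 0.00641), 1 of 12 members tested beside 0.559% of 5368 genes called, all of them lower. Kcnc2 was not alone in direction: 10 of the 12 members had a negative log2 fold change, beside 2690 positive and 2678 negative genes. So did 10 of 10 partners and 6 of 6 other potassium channels. At an unadjusted p under 0.05, 4 members were lower and 0 higher, beside 463 and 432 genes. The 8 inhibitory neuron markers summed to 1507 and 1920 CPM in the same WT nuclei and to 106 and 307 CPM in the Csf1r+/- nuclei, with a UMI for 7 of the 8 and none for Dlx6, Erbb4 at 1345, 1657, 80.2 and 223 CPM and Gad1 at 35.1, 69.4, 10.9 and 23.2 CPM. The pan-neuronal markers summed to 14360 and 16001 against 11839 and 8583 CPM. Of the endothelial nuclei, 21.7% and 31.0% had a high doublet score in the WT libraries, against 11.4% and 17.6% in Csf1r+/-. Over all nuclei these shares were 12.9% and 12.2% in WT, against 7.68% and 8.94% in Csf1r+/-. The number of nuclei called high was set in advance from the size of each library, so larger libraries had higher shares.

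Without the nuclei of high doublet score, Kcnc2 gave 159 and 425 CPM in WT, then 173 and 75.4 CPM in Csf1r+/-, so that the groups overlapped, and the log2 fold change was -1.31 ± 0.56 (adjusted p = 0.634). The inhibitory markers then summed to 351 and 2564 CPM in WT, then 138 and 249 CPM in Csf1r+/-. The channel partners with the smallest p in endothelial nuclei were Kcnip1 (-2.69 ± 0.54, adjusted p = 0.0423), Dpp6 (-1.08 ± 0.27, adjusted p = 0.118) and Cntnap2 (-1.13 ± 0.30, adjusted p = 0.143). The part of neuronal RNA from other nuclei in these endothelial differences was not tested. Endothelial Kcnq1 did not pass the detection filter and was not tested.

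**Figure D5:**
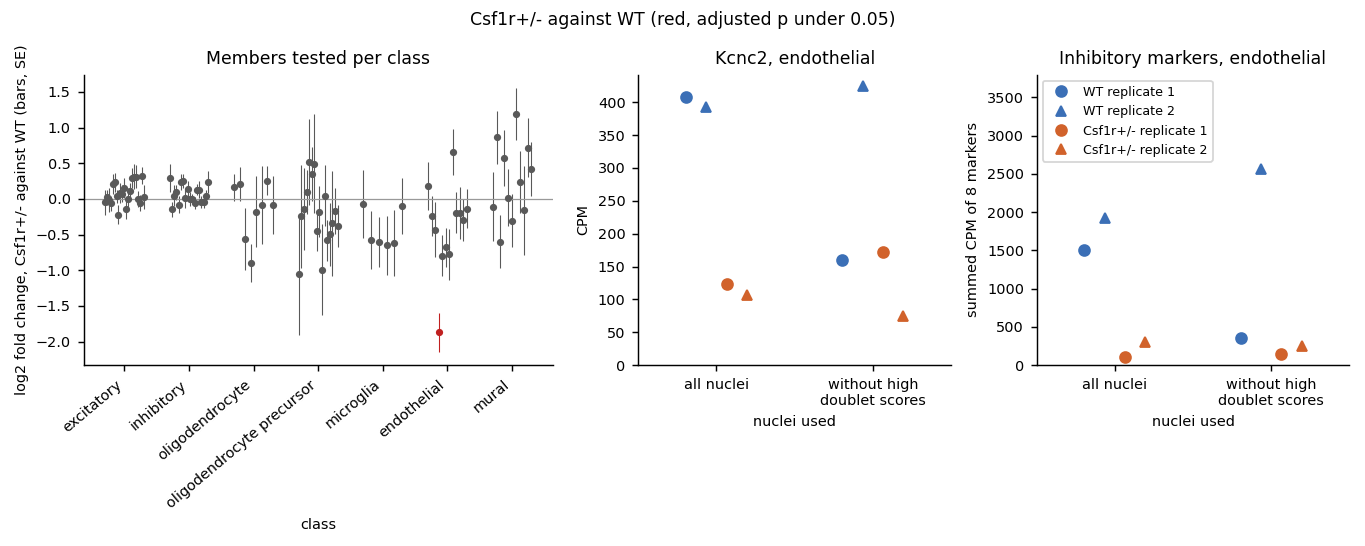
The left plot gives log2 fold changes of Csf1r+/- against WT for each member tested in a class, with bars for the SE and red for an adjusted p under 0.05. The middle and right plots give CPM of Kcnc2 and of 8 summed inhibitory markers in endothelial nuclei of each library, with and without nuclei of high doublet score. Kcnc2 in endothelial nuclei at -1.87 is the single red point, and WT replicate 1 drops from 408 to 159 CPM without the nuclei of high doublet score.

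Of the partners and other potassium channels, the smallest p in the other classes were those of Kcnn3 in excitatory (-0.38 ± 0.17), Kcnj6 in inhibitory (0.17 ± 0.07), Adam22 in microglia (-0.86 ± 0.26), Dpp6 in mural (0.71 ± 0.38) and oligodendrocyte (-0.67 ± 0.25) and Kcnt2 in precursor nuclei (-1.30 ± 0.42), with adjusted p from 0.489 to 1. In all, 9 of the 40 members passed the detection filter in no class or type and could not be compared between genotypes: Kcna3, Kcna5, Kcna7, Kcna10, Kcnd1, Kcng4, Kcnh6, Kcnq1 and Kcnv2.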

How the data were processed

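The deposited files hold UMI counts per gene and nucleus that the authors made with Cell Ranger 5.0.0 on mm10, per the file headers and the labels, with no normalization; intron and strand settings are not given in the sources used here. A nucleus entered the analysis if its UMIs lay between 500 and 50000, over 200 genes were detected and mitochondrial UMIs made up less than 5%. Nuclei were clustered in scanpy 1.11.5 (3000 variable genes, 30 components, Leiden resolution 2) without the potassium channel and partner genes, giving 51 clusters. Likely doublets were scored with Scrublet and kept, and removed as an alternative. Counts were summed per library and class or type, for types with at least 10 nuclei a library, and genes with at least 10 counts and a UMI in 10% of nuclei were tested in edgeR 4.0.16 (R 4.3.3, quasi-likelihood F test, TMM scaling, Benjamini-Hochberg adjustment over all genes), with DESeq2 1.42.0 as an alternative. Pairs of types were fitted with the library as block, and a gene entered a pair if it passed the detection limit in either type. Scripts were tested on simulated data. Named were members at 20 CPM or more and 3 times their median in their highest type, those at p under 0.01 between genotypes, and for other lists the 3 smallest p. The members, lists and tests were chosen with earlier results of these data known. The libraries are separate mice, so p-values cover the spread between mice, and intervals from counts cover counting error only. A few members enter the counts and medians but are not reported here by name.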

Additional observations from a re-analysis of the deposited data

How the results depend on the processing

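Endothelial calls numbered 1 in the reported fit, 2 with DESeq2 and 0 without nuclei of high doublet score. The shares of all genes called in these 2 refits are not given here. Kcnc2 there was -1.31 without high doublet scores and lay between -2.03 and -1.74 when each library was left out. In microglia 0 members were called in the reported fit, and Kcnq3 lay between -1.68 and 0.04 when each library was left out. Over neuron types, calls went from 0 to 2 with the likelihood-ratio test (Kcnd3 in Pvalb interneurons and Kcnh1 in Atp10b-led neurons) and 4 with DESeq2. Kcnh1 in Atp10b-led neurons lay between 0.54 and 0.89 when each library was left out. With the replicate number as block 3 were called (Kcnd3 and Kcna1 in Pvalb interneurons and Kcnc2 in layer 5 near-projecting neurons), and Kcnc2 in endothelial nuclei was -1.88. For these refits over neuron types the shares of all genes called are not given here, so their counts have no background. Deviations of same-numbered libraries correlated from -0.405 in oligodendrocytes to 0.0839 in mural nuclei, so the numbers were not taken to pair the mice. A crossed pairing in oligodendrocytes, chosen after seeing the data, called 0 of 8.

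Without the detection filter, 23 of 36 members differed between Pvalb and Sst interneurons and 31 of 39 between inhibitory and excitatory neurons. The shares of all genes called in these refits are not given here, so these counts have no background to be read against. At clustering resolution 1 Kcna2 turned to 0.0049 between inhibitory and excitatory neurons (adjusted p = 0.921). Of the other type differences that were called, 14 refits lost the call, 648 kept it and none changed sign. Not recovered, or under 10 nuclei in a library, were microglia, mural nuclei and the hippocampal pyramidal, Atp10b-led, Ddc-led, Gna14-led and Ebf3-led types at resolution 1, precursors and the Chst9-led and Ebf3-led types without centring, and precursors and the Chst9-led type without high doublet scores. The planned comparison of Drd1 and Drd2 striatal neurons was not made. The naming step left the Drd1 and Drd2 lists out and so could not assign these 2 types in any setting. In the reported clustering the subclusters that met the Drd2 list met the Drd1 list too, and those that met the Drd1 list alone held 4 nuclei of WT replicate 1. Without centring subclusters met each list alone (368 nuclei for Drd1 and 175 for Drd2), and no comparison was made there. The causes of these changes were not tested. Each group had 2 mice, and the 3 smallest types 65 to 149 nuclei, and how small a difference could have been called was not measured.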

Other observations

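The channel partners and other potassium channels were also compared between neuron types, and their calls are given beside the shares of all genes. Of 13 partners tested, 5 were higher and 5 lower in inhibitory than in excitatory neurons, beside 37.0% of all genes higher and 31.8% lower. Kcnip1 differed by 3.70 ± 0.11 (edgeR, adjusted p = 1.33e-06), Dpp6 by 1.49 ± 0.06 and Kcnip3 by -2.13 ± 0.09. Of 15 inwardly rectifying, leak and calcium- or sodium-activated channels, 1 was higher (Kcnn2, 0.39 ± 0.07) and 11 lower, led by the leak channel Kcnk4 at -2.49 ± 0.13. All 15 passed the detection limit in excitatory neurons but only 13 in inhibitory neurons. Kcnk4 passed it in excitatory neurons alone, so the filter favoured its direction. Between Pvalb and Sst interneurons 9 of 12 such channels were higher and 3 lower, beside 18.1% and 17.4% of all genes. Among them were the inward rectifier Kcnj3 at 1.12 ± 0.06 and Kcnj6 at 0.85 ± 0.08. In layer 6 corticothalamic against upper layer cortical neurons, 6 of 18 were higher and 10 lower, beside 26.1% and 27.1% of all genes. The leak channel Kcnk2 was at 2.82 ± 0.08 and Kcnk13 at -3.86 ± 0.18. Kcnk13 passed the detection limit in upper layer neurons alone, so the filter favoured its direction.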
